A study of Chlorella sorokiniana with 6 samples.

Results

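Glycolysis was examined in the green microalga *Chlorella sorokiniana* by enzyme step and by compartment. Its members were all transcripts of the deposited count table that the MapMan annotation, a plant scheme of numbered functional categories called BINs, places in BIN 4 or one of its children, which gave 105 of 18310 transcripts. The annotation puts 64 of them in a cytosolic branch of 14 BINs, 39 in a plastid branch of 3 BINs and 2 in 1 BIN called unclear or dually targeted, so that each of the 18 BINs is an enzyme step in a branch. RNA was sequenced from mixotrophic cultures (100 µmol photons of light and 2% glucose) and from normal cultures (10 µmol photons and 0% glucose) after 7 days, with 3 libraries per condition. The study's methods name strain NIES-2168 for all cultures, while the labels number the strain of each sample upwards from it, and the labelled strain cannot be told apart from the library. Light and glucose changed together, so their effects cannot be told apart, and in bulk RNA neither can fewer cells and less RNA per cell.

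Glycolysis splits glucose into pyruvate and yields ATP and NADH, and its intermediates feed starch, lipid and amino acid synthesis. Hexose phosphates are made and interconverted first, phosphofructokinase and aldolase then lead to triose phosphates, and glyceraldehyde 3-phosphate dehydrogenase, phosphoglycerate kinase, phosphoglycerate mutase, enolase and pyruvate kinase lead on to pyruvate. In *Chlamydomonas*, another green alga, the early reactions are known to lie mainly in the chloroplast and the late ones in the cytosol. The branches used here come from the annotation, which matches sequences to known proteins of plants and *Chlamydomonas*, and were not measured.

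The authors deposited unnormalized read counts for each transcript. Libraries held 3527337 to 4444858 counts in mixotrophic and 2535461 to 3560221 in normal cultures. The main comparison took replicates 2 and 3 of each condition, the 4 libraries of the study's own expression table, and a fit over all 6 libraries is given beside it. Over glycolysis, normal replicate 1 stood apart from the other normal libraries. Over the tested glycolysis transcripts it differed from normal replicates 2 and 3 by 0.819 and 0.909 in log2 level (root mean square), against 0.290 between those 2 and 0.288 between mixotrophic replicates 2 and 3. Mixotrophic replicate 1 differed from its 2 fellows by 0.312 and 0.383 over glycolysis, and by 0.928 and 1.040 over all tested transcripts. Over all tested transcripts it differed from normal replicate 1 by 0.912. Normal replicate 1 differed there from its fellows by 1.427 and 1.314. In replicate 1 of both conditions, 878 transcripts stood at least 2-fold below the other libraries, and 0 of them were glycolysis members. The cause of this shared shift was not tested. Replicates 2 and 3 differed by little more than counting noise, with a chi-square per transcript of 1.47 in mixotrophic and 1.68 in normal cultures over all transcripts, and 1.09 and 1.23 over glycolysis, where 1 is counting noise alone. The common coefficient of variation was 4.641% over the 4 libraries and 35.520% over the 6. The libraries carry the transcripts of a photosynthetic cell, with 29 of 32 annotated to the light-harvesting antenna past the filter on low counts.

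Levels are given in CPM, counts scaled to a common library total, in the order of replicates 1, 2 and 3, with mixotrophic libraries before normal ones. They are not divided by transcript length, so a level is compared only between libraries. A transcript was called higher or lower in mixotrophic cultures where edgeR's quasi-likelihood test, two-sided, gave a Benjamini-Hochberg adjusted p under 0.05 over all transcripts tested, and log2 fold changes are mixotrophic over normal with their SE.

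Of the 105 members, 69 had a count in some library and 63 passed the filter on low counts. The remaining 36 of the 105 had none, which is 34.3% against 23.6% of all transcripts. These 36 were 12 of 21 plastid phosphoglucomutase members, 10 of 13 members of the kinase step, 6 of 14 of plastid phosphofructokinase, 5 of 25 of phosphoglycerate mutase, 2 of 4 of glucose-6-phosphate isomerase, and the single enolase, g16192. A count of 0 allows up to 3 counts, or 0.675 to 1.18 CPM in these libraries, which covers counting error only. These transcripts were predicted from an assembly of the same reads, and whether their 0 comes from depth or from how reads were aligned and counted was not tested, so no level is stated for enolase. Of the 36, 7 lie on an assembled contig where another predicted transcript has counts. The assembly joins related contigs into components, and the members fell into 38 of these, of which 21 hold 2 or more members. Transcripts of a component can divide the reads of a gene and are not independent of each other, so counts were also summed per component and per step. No BIN of glycolysis holds phosphoglycerate kinase, and most aldolases and part of the triose phosphate enzymes are binned to the Calvin cycle.

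In sum, glycolysis transcripts held 8085.5, 8165.1 and 8268.4 CPM in mixotrophic libraries, against 6495.4, 7678.1 and 7378.5 CPM in normal libraries. Mixotrophic libraries were higher without overlap. Glyceraldehyde 3-phosphate dehydrogenase carried this. All other members together held 6082.6, 6071.4 and 6132.7 CPM in mixotrophic libraries and 6046.6, 6458.1 and 6189.4 CPM in normal libraries, which overlapped. The plastid branch held 1376.3, 1403.4 and 1373.2 CPM in mixotrophic libraries, against 1287.6, 1139.9 and 1071.8 CPM in normal libraries. The cytosolic branch held 6689.6, 6730.5 and 6873.8 CPM in mixotrophic libraries, against 5163.9, 6500.3 and 6262.0 CPM in normal libraries. Both branches lay higher in all mixotrophic libraries, the cytosolic one only with glyceraldehyde 3-phosphate dehydrogenase. Without that step it held 4686.7, 4636.8 and 4738.1 CPM in mixotrophic libraries and 4715.0, 5280.2 and 5073.0 CPM in normal libraries, which overlapped.

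Over the 4 libraries, 21 of the 63 tested members (33.3%) were higher and 24 (38.1%) were lower in mixotrophic cultures. Over all 12389 transcripts tested the shares were 28.6% higher and 29.0% lower. The 21 came from 14 components and the 24 from 11. The median log2 fold change of the members was 0.01, against -0.02 over all transcripts tested, and the median absolute value was 0.768 against 0.521. Over all 6 libraries, 4 members (6.35%) were higher and 18 (28.6%) were lower, where all 12318 transcripts tested gave 13.3% and 15.2%. The 18 came from 8 components. The median was then 0.10, against -0.04 over all transcripts tested. These 22 were all called in the same direction over 4 libraries. With the replicate number as a block, 3 were higher and 13 lower over 6 libraries, where 9.97% and 10.5% of all transcripts were. Without normal replicate 1, 21 were higher and 26 lower over the remaining 5 libraries, against 27.8% and 28.2% of all transcripts. Without mixotrophic replicate 1, 2 were higher and 8 lower, against 5.32% and 5.83%. DESeq2 called 18 higher and 18 lower over 4 libraries, where 19.4% and 20.0% of all transcripts were.

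Normal replicate 1 touched the higher members more than the lower ones. For 15 of the 21 higher members its log2 level lay nearer to the mean of mixotrophic replicates 2 and 3 than to that of normal replicates 2 and 3, which is 71.4% against 51.0% of all transcripts called higher. For the lower members this was so in 6 of 24, 25.0% against 44.8%. Over all 6 libraries the conditions did not overlap for 13 tested members that were higher (20.6%, against 24.4% of all transcripts tested). The same held for 24 that were lower (38.1%, against 24.2%). Of these 24, 12 belong to cytosolic phosphoglycerate mutase and 4 to a single plastid phosphofructokinase component. Members of a component share reads, so these shares do not count independent genes.

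The counts are also given by branch, to be read against the 28.6% higher and 29.0% lower of all transcripts over 4 libraries, and the 13.3% and 15.2% over 6. In the cytosolic branch 13 of 42 tested members were higher and 18 lower over 4 libraries, with a median log2 fold change of -0.25, and 3 were higher and 12 lower over 6. In the plastid branch 8 of 19 were higher and 4 lower, with a median of 0.55, and 1 was higher and 4 lower over 6. All 4 lower plastid members belong to a single phosphofructokinase component, and the 8 higher ones to phosphoglucomutase, pyruvate kinase and 1 phosphofructokinase transcript. The difference between branches was not tested, since members of a component share reads.

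**Figure D1:**
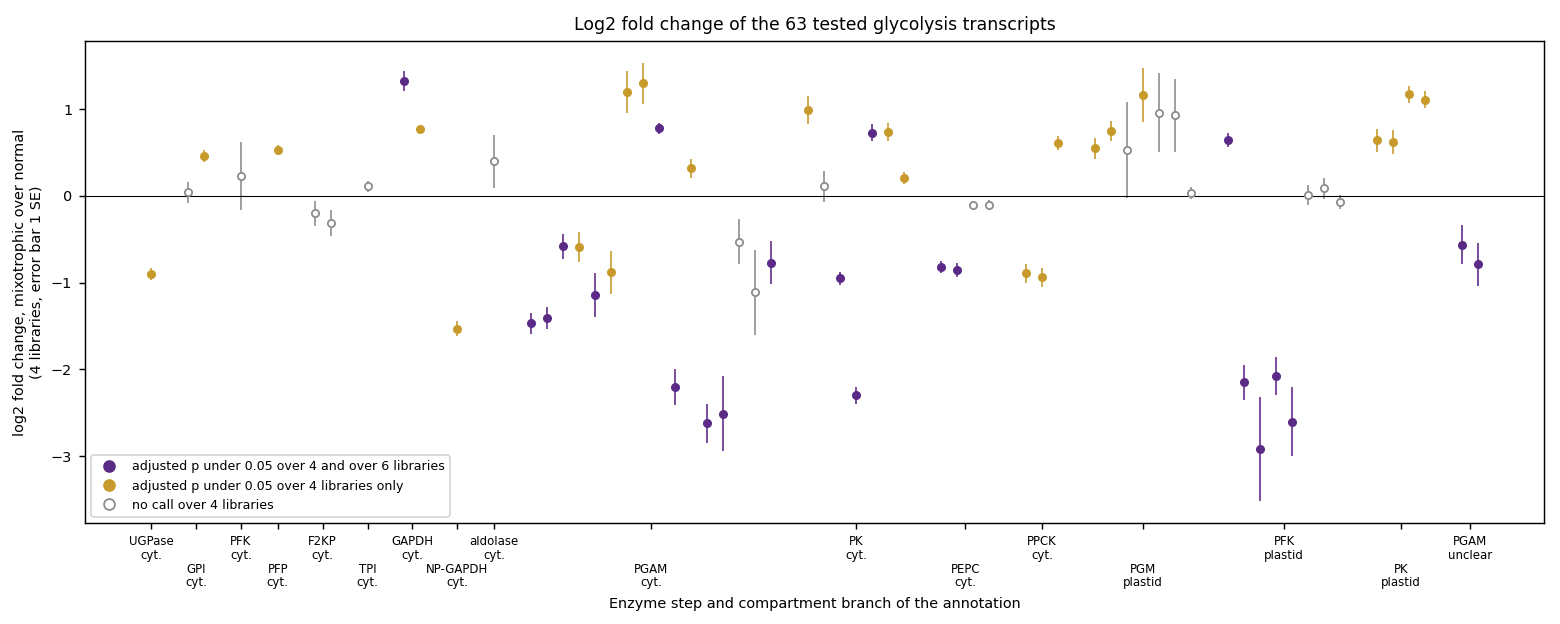
Log2 fold change, mixotrophic over normal, of each of the 63 tested glycolysis transcripts over 4 libraries, with 1 SE, grouped by enzyme step and compartment branch (x axis). Filled points passed an adjusted p of 0.05, purple ones over 4 and over 6 libraries, and the transcripts that fell most belong to phosphoglycerate mutase, pyruvate kinase and plastid phosphofructokinase.

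Of the 38 components, 36 were tested, and 13 were higher (36.1%) and 14 lower (38.9%) over 4 libraries, where 30.5% and 30.6% of all components were. Over 6 libraries 4 were higher (11.1%) and 9 lower (25.0%), against 14.6% and 17.0% of all components. Some components hold transcripts of other functions, and with only the glycolysis members of each summed, 13 were higher and 12 lower over 4 libraries, and 4 higher and 8 lower over 6, among 33 tested. All components gave 30.5% and 30.5% in that table over 4 libraries, and 14.7% and 17.0% over 6. The component table has its own scaling, under which the same counts gave log2 fold changes lower by 0.05 (median of 4165 components of a single transcript).

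Of the 18 steps, 17 were tested, and over 4 libraries 5 were higher (29.4%) and 6 lower (35.3%), where 40.0% and 28.7% of all BINs were. The higher steps were glucose-6-phosphate isomerase, the pyrophosphate-dependent phosphotransferase, glyceraldehyde 3-phosphate dehydrogenase, plastid phosphoglucomutase and plastid pyruvate kinase. The lower steps were UGPase, the non-phosphorylating dehydrogenase, cytosolic pyruvate kinase, PEP carboxylase, the step binned as its kinase, and the mutase of unclear compartment. The counted members of that kinase BIN are described as calcium-dependent protein kinases and moved in different directions. Over 6 libraries 1 step was higher, plastid phosphoglucomutase, and 1 was lower, the mutase of unclear compartment, where 26.3% and 13.3% of all BINs were. With the replicate block over 6 libraries these 2 had an adjusted p of 0.0970 and 0.0634 in edgeR, and glyceraldehyde 3-phosphate dehydrogenase was the only step called, at an adjusted p of 0.0464, where 23.1% of all BINs were called higher and 8.31% lower.

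**Figure D2:**
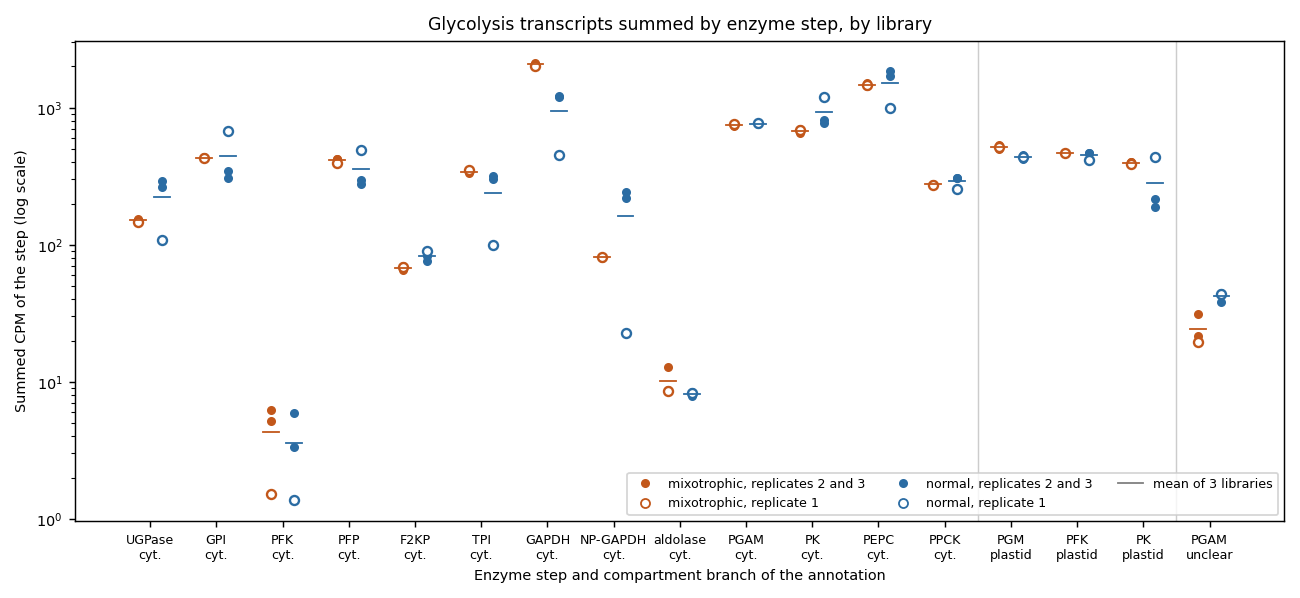
Summed CPM of each step that had counts (y axis, log scale) by enzyme step and compartment branch (x axis), with mixotrophic libraries (orange) left of normal ones (blue). Open circles are replicate 1 and the short lines are means of 3 libraries; mixotrophic libraries lie close together except at cytosolic PFK, aldolase and unclear PGAM, and normal replicate 1 lies away from the other normal libraries at UGPase, GPI, TPI, both GAPDH steps, PEPC and plastid PK, among others.

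At the entry of the pathway, phosphoglucomutase interconverts glucose 1- and 6-phosphate. Its plastid step held 517.0, 533.3 and 502.6 CPM in mixotrophic libraries, against 434.5, 454.7 and 419.1 CPM in normal libraries. The conditions did not overlap, and the step rose by 0.23 ± 0.0642 (log2, SE) over 4 libraries (edgeR adjusted p = 0.00423) and by 0.25 ± 0.0601 over 6 (adjusted p = 0.0244). The step adds up a pair of components that behaved differently. The transcript g17215, matched to the plastid phosphoglucomutase of *Arabidopsis* and the member of the step with the most counts, had 349.3, 353.5 and 322.8 CPM in mixotrophic libraries and 231.3, 340.3 and 314.0 CPM in normal libraries. Its log2 fold change was 0.03 ± 0.0675 over 4 libraries (adjusted p = 0.722) and 0.21 ± 0.161 over 6 (adjusted p = 0.382). Over 4 libraries the rise lay in a component of 20 members matched to a putative phosphoglucomutase, of which 8 had counts. It held 167.7, 179.7 and 179.8 CPM in mixotrophic libraries, against 203.1, 114.4 and 105.1 CPM in normal libraries, so normal replicate 1 exceeded all mixotrophic libraries. It was higher over 4 libraries, with a log2 fold change of 0.64 ± 0.0849 (adjusted p = 4.4e-06), and not over 6 (0.27 ± 0.248, adjusted p = 0.466). Its transcript g5976, with the smallest p of the step, had 80.9, 80.8 and 79.5 CPM in mixotrophic libraries, against 83.2, 48.4 and 45.7 CPM in normal libraries. Among the normal libraries, replicate 1 was thus highest in this component and lowest in g17215. Neither was called over 6 libraries, although the step that sums them was.

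UGPase, which makes UDP-glucose from glucose 1-phosphate, is represented by g16345. It had 147.0, 153.1 and 152.0 CPM in mixotrophic libraries, against 108.6, 265.1 and 292.7 CPM in normal libraries. It fell over 4 libraries, with a log2 fold change of -0.90 ± 0.0725 (adjusted p = 1.05e-11). Normal replicate 1 lay below all mixotrophic libraries, and over 6 the value was -0.56 ± 0.360 (adjusted p = 0.303).

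Glucose-6-phosphate isomerase, which turns glucose 6-phosphate into fructose 6-phosphate, showed the opposite placement of normal replicate 1. Its leading transcript g7399 had 370.0, 370.3 and 369.4 CPM in mixotrophic libraries, against 624.9, 285.6 and 245.0 CPM in normal libraries. The log2 fold change was 0.46 ± 0.0689 over 4 libraries (adjusted p = 1.23e-06) and -0.06 ± 0.360 over 6 (adjusted p = 0.945), so its sign turned with that library. The other isomerase transcript with counts, g6310, had 62.4, 65.7 and 59.8 CPM in mixotrophic libraries and 46.7, 61.0 and 59.5 CPM in normal libraries, with no call in either fit.

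Fructose 6-phosphate is phosphorylated by ATP-dependent phosphofructokinase (PFK) or by a pyrophosphate-dependent phosphotransferase (PFP) that also runs backwards. PFP, g5727, had 393.9, 424.0 and 419.7 CPM in mixotrophic libraries, against 487.5, 295.2 and 279.9 CPM in normal libraries. It was higher over 4 libraries, by 0.53 ± 0.0619 on the log2 scale (adjusted p = 1.6e-08), and not over 6 (0.22 ± 0.228, adjusted p = 0.536). Nearly all PFK counts came from the plastid branch. Its share was 99.7, 98.9 and 98.7% in mixotrophic libraries and 99.7, 99.3 and 98.7% in normal libraries, a difference of -0.14 percentage points (exact permutation test, two-sided, p = 0.8, adjusted p = 0.8 over 2 enzymes). The cytosolic g16399 stood between 1.38 and 6.18 CPM in the 6 libraries, lowest in replicate 1 of both conditions, and its log2 fold change was 0.23 ± 0.395 (adjusted p = 0.652).

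The plastid PFK step as a whole was level, with 468.2, 467.5 and 470.0 CPM in mixotrophic libraries and 416.5, 469.3 and 464.5 CPM in normal libraries. Its log2 fold change was -0.02 ± 0.0573 over 4 libraries (adjusted p = 0.819). Within it the components moved in different directions. All 14 members of the step are matched to the same *Arabidopsis* protein, phosphofructokinase 5, a plastid isoform. The single-transcript component g10398 had 188.9, 174.8 and 195.3 CPM in mixotrophic libraries, against 141.5, 119.0 and 114.3 CPM in normal libraries. It rose without overlap, by 0.64 ± 0.0810 over 4 libraries (adjusted p = 7.32e-08) and by 0.58 ± 0.123 over 6 (adjusted p = 0.0195, and 0.0564 with the replicate block).

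A component of 4 transcripts, g13382 to g13385, had 21.8, 19.7 and 18.5 CPM in mixotrophic libraries, against 65.5, 93.1 and 83.4 CPM in normal libraries. No library of a condition came near the other condition. The component fell by 2.27 on the log2 scale (SE 0.147, adjusted p = 5.37e-10) over 4 libraries and by 2.07 (SE 0.181, adjusted p = 0.00149) over 6, where it was also called with the replicate block (adjusted p = 0.0114). Each of its transcripts was called lower in both fits. For g13382 the levels were 11.4, 8.62 and 8.99 CPM in mixotrophic libraries and 24.0, 41.8 and 35.8 CPM in normal libraries. For g13384 they were 6.48, 8.12 and 7.59 CPM in mixotrophic libraries and 27.9, 35.5 and 30.9 CPM in normal libraries. The transcripts g13383 and g13385 stood at 0.281 to 2.37 CPM in mixotrophic libraries and at 3.59 to 11.8 CPM in normal libraries, and g13383 missed the threshold over 6 libraries with the block (adjusted p = 0.0508). The largest PFK component, with g13939, g13940 and g13942, held 257.5, 273.0 and 256.2 CPM in mixotrophic libraries and 209.5, 257.2 and 266.7 CPM in normal libraries, with no call in either fit. Outside the component that fell, the step held 446.4 to 451.5 CPM in mixotrophic libraries, against 351.0 to 381.0 CPM in normal libraries.

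**Figure D3:**
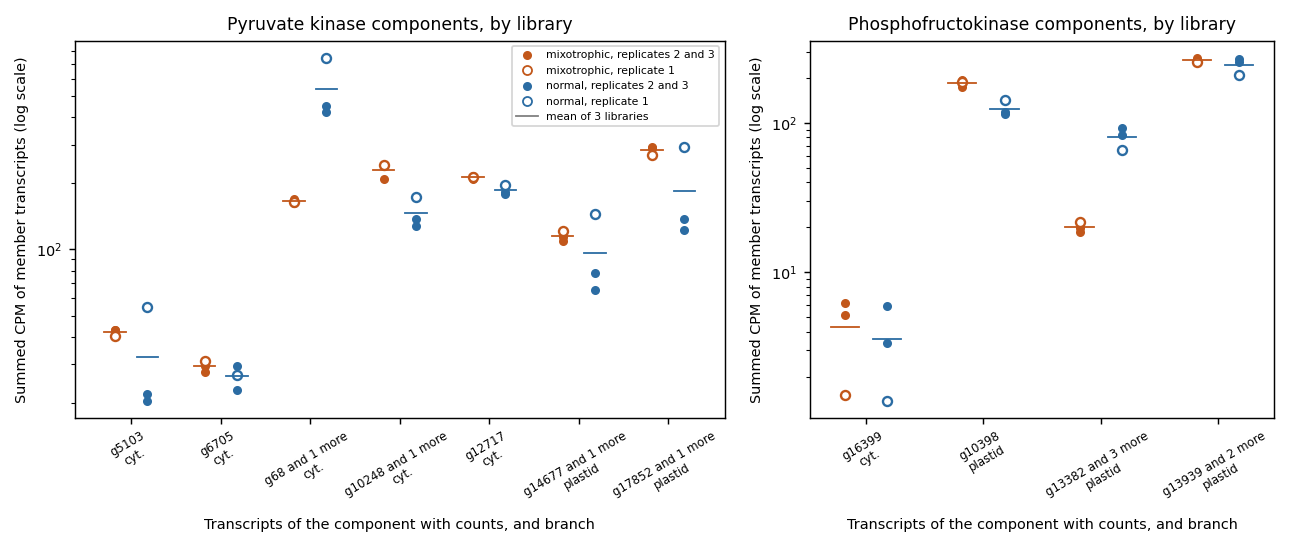
Summed CPM of member transcripts (y axes, log scale) for each component of pyruvate kinase (left) and phosphofructokinase (right) with counts, with mixotrophic libraries (orange) left of normal ones (blue) and open circles for replicate 1. The component of g68 and that of g13382 lie lower in all 3 mixotrophic libraries, while the components of g10248 and g10398 lie higher.

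F2KP, the bifunctional kinase and phosphatase that sets the level of a regulatory fructose bisphosphate, has 2 transcripts in 1 component. They held 68.9, 65.0 and 70.2 CPM in mixotrophic libraries, against 90.7, 82.7 and 75.9 CPM in normal libraries. Mixotrophic libraries were lower without overlap. The component was called lower over 4 libraries, with a log2 fold change of -0.30 ± 0.113 (adjusted p = 0.0294, and 0.0510 with the replicate block) and over 6 with -0.34 ± 0.0966 (adjusted p = 0.0417, and 0.149 with the block). The same counts were not called as a step, in the fit over BINs with the transcript scaling (-0.25 ± 0.130 over 4 libraries, adjusted p = 0.0965). Neither g4931 (-0.20 ± 0.144, adjusted p = 0.246) nor its neighbour was called alone.

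Aldolase, which splits fructose bisphosphate into triose phosphates, is represented in glycolysis by g4875 alone, at 8.63, 12.8 and 8.71 CPM in mixotrophic libraries and 8.29, 8.35 and 7.88 CPM in normal libraries. The difference did not pass the test (0.40 ± 0.306, adjusted p = 0.274). Triose phosphate isomerase, g4925, had 348.8, 334.6 and 343.3 CPM in mixotrophic libraries, against 99.5, 301.9 and 317.3 CPM in normal libraries. Mixotrophic libraries were higher without overlap, but by 0.11 ± 0.0620 over 4 libraries, which was no call (adjusted p = 0.147). With upper quartile scaling it passed (0.17, adjusted p = 0.0223), and over 6 libraries the value was 0.52 ± 0.419 (adjusted p = 0.415).

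Glyceraldehyde 3-phosphate dehydrogenase (GAPDH), which oxidises triose phosphate and reduces NAD, was higher in all mixotrophic libraries. Its step held 2002.9, 2093.7 and 2135.7 CPM in mixotrophic libraries, against 448.8, 1220.0 and 1189.1 CPM in normal libraries. It rose by 0.79 ± 0.0418 on the log2 scale over 4 libraries (adjusted p = 7.44e-12), and over 6 the value was 1.13 ± 0.381 (adjusted p = 0.0648, and 0.0464 with the replicate block). The main transcript g17106 had 1905.4, 2000.2 and 2031.8 CPM in mixotrophic libraries, against 406.6, 1181.6 and 1149.7 CPM in normal libraries. It rose by 0.77 ± 0.0472 over 4 libraries (adjusted p = 2.31e-14), a 1.70-fold difference. Normal replicate 1 was lowest, which widened both the difference and its error over 6 libraries (1.12 ± 0.393, adjusted p = 0.0828).

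The minor transcript g1136 had 97.6, 93.6 and 103.9 CPM in mixotrophic libraries, against 42.3, 38.4 and 39.4 CPM in normal libraries. All 3 normal libraries were close together here. It rose by 1.32 ± 0.116 over 4 libraries (adjusted p = 6.49e-11) and by 1.29 ± 0.105 over 6 (adjusted p = 0.00135), and was also called with the block (adjusted p = 0.0119). The text descriptions of both GAPDH transcripts were removed from the copy of the table used here, and their step was taken from the BIN.

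The non-phosphorylating GAPDH bypasses the ATP-forming step by oxidising the aldehyde with NADP. Its transcript g17883 had 81.4, 81.5 and 80.3 CPM in mixotrophic libraries, against 22.7, 243.8 and 218.8 CPM in normal libraries. It fell over 4 libraries, with a log2 fold change of -1.53 ± 0.0836 (adjusted p = 1.45e-15). Normal replicate 1 lay below all mixotrophic libraries, and over 6 the value was -0.99 ± 0.767 (adjusted p = 0.391). Among the 17 tested steps none had a normal replicate 1 farther in fold from the other normal libraries.

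**Figure D4:**
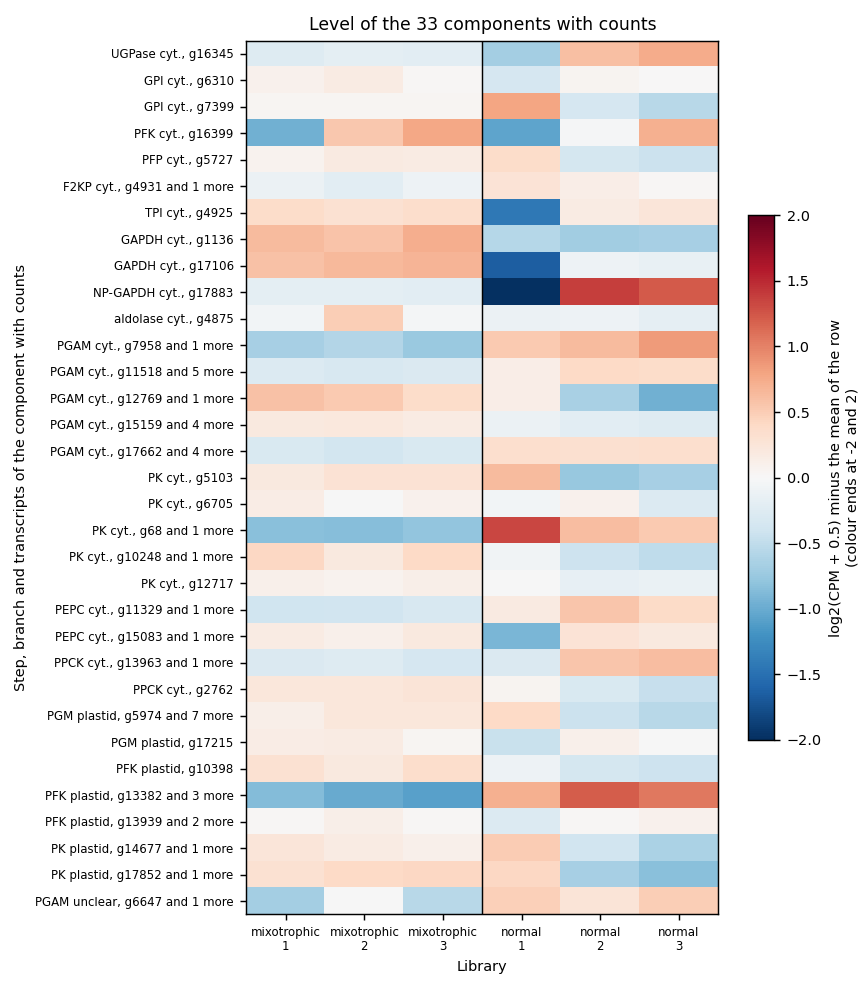
Level of the 33 components with counts (rows, glycolysis members summed, by step and branch) in each library (columns), as log2(CPM + 0.5) minus the mean of the row. The 3 mixotrophic columns look alike in most rows. Normal replicate 1 differs from normal replicates 2 and 3 in sign at UGPase, GPI, TPI, PFP, plastid PK and the non-phosphorylating GAPDH, among other rows.

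Phosphoglycerate mutase, which moves the phosphate group before enolase acts, has the most members of any step. Its cytosolic step was level, at 761.1, 762.0 and 736.6 CPM in mixotrophic libraries and 768.1, 760.3 and 769.9 CPM in normal libraries, and its log2 fold change was -0.05 ± 0.0503 (adjusted p = 0.370). Of its 16 tested members 4 were higher and 10 lower over 4 libraries, and 1 was higher and 8 were lower over 6. DESeq2 called 3 higher and 6 lower over 4 libraries. All transcripts tested gave 28.6% higher and 29.0% lower over 4 libraries in edgeR, and 13.3% and 15.2% over 6. Members of a component share reads, so the counts of this step are not independent. The descriptions separate 2 kinds of protein. The components of g15159 and g17662 are described as cofactor-independent mutases, the plant type of the enzyme. The other 3 are described as phosphoglycerate mutase family proteins of the histidine phosphatase superfamily, a group that also contains phosphatases of other substrates.

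The main mutase component, with g15159 to g15163, held 541.8, 544.8 and 529.9 CPM in mixotrophic libraries, against 432.8, 408.8 and 395.2 CPM in normal libraries. It rose without overlap, by 0.35 ± 0.0561 over 4 libraries (adjusted p = 4.14e-05) and by 0.33 ± 0.0735 over 6 (adjusted p = 0.0215, and 0.113 with the block). It was the 1 component of glycolysis with transcripts called in opposite directions. Its leading transcript g15159 had 451.1, 452.5 and 438.3 CPM in mixotrophic libraries, against 306.8, 258.0 and 253.6 CPM in normal libraries. It was higher in both fits (0.78 ± 0.0626, adjusted p = 8.94e-12 over 4, and 0.71 ± 0.107, adjusted p = 0.00662 over 6).

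The neighbours g15160 and g15162 went the other way. The levels of g15160 were 6.04, 8.62 and 7.59 CPM in mixotrophic libraries and 29.8, 37.2 and 36.8 CPM in normal libraries, and its log2 fold change was -2.20 ± 0.209 over 4 libraries (adjusted p = 3.13e-10) and -2.22 ± 0.197 over 6 (adjusted p = 0.00158). Those of g15162 were 7.55, 7.39 and 5.62 CPM in mixotrophic libraries and 27.6, 45.1 and 35.5 CPM in normal libraries, with -2.62 ± 0.226 (adjusted p = 4.13e-11) and -2.38 ± 0.245 (adjusted p = 0.00229). Both fell more than 4-fold without overlap. The low g15163 had 2.81, 1.23 and 1.97 CPM in mixotrophic libraries, against 4.42, 8.77 and 9.20 CPM in normal libraries, and was lower in both fits but not with the block over 6 libraries (adjusted p = 0.0605).

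As a share of the counts of the component, g15160 and g15162 had 1.12, 1.58 and 1.43% and 1.39, 1.36 and 1.06% in mixotrophic libraries. In normal libraries they had 6.90, 9.09 and 9.31% and 6.39, 11.0 and 8.98%. The share of g15159 was 82.7 to 83.3% in mixotrophic and 63.1 to 70.9% in normal libraries, while that of g15161 stayed at 13.7 to 14.4% and 14.6 to 15.2%. The level of g15161 was 74.3, 75.1 and 76.4 CPM in mixotrophic libraries and 64.1, 59.7 and 60.1 CPM in normal libraries, higher by 0.32 ± 0.110 over 4 libraries (adjusted p = 0.0155). It was not called in DESeq2 (adjusted p = 0.177), nor in edgeR without mixotrophic replicate 2 (0.31, adjusted p = 0.0679) or without normal replicate 2 (0.29, adjusted p = 0.0545). Reads were counted at the default settings of featureCounts, and how these treat reads that match several of these transcripts was not tested.

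**Figure D5:**
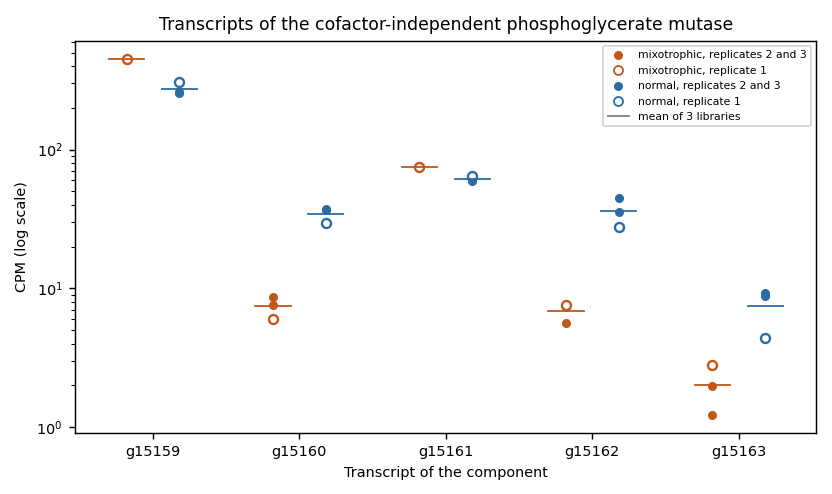
CPM (y axis, log scale) of the 5 transcripts of the main phosphoglycerate mutase component in mixotrophic (orange, left) and normal libraries (blue, right), with open circles for replicate 1 and lines for the mean of 3 libraries. The transcripts g15159 and g15161 lie higher and g15160, g15162 and g15163 lower in the mixotrophic libraries, without overlap.

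The second cofactor-independent component, with g17664 among its 7 members, held 25.7, 24.4 and 25.6 CPM in mixotrophic libraries, against 40.1, 39.7 and 40.1 CPM in normal libraries. All libraries of a condition were close together, and it was lower over 4 libraries (-0.75 ± 0.164, adjusted p = 0.000744), over 6 (-0.72 ± 0.112, adjusted p = 0.00714) and over 6 with the block (adjusted p = 0.0412). The histidine phosphatase components together held 193.6, 192.8 and 181.2 CPM in mixotrophic libraries, against 295.2, 311.9 and 334.7 CPM in normal libraries. They did not move as a group. The component of g7958 and g7959 fell without overlap. The levels of g7958 were 37.3, 35.7 and 36.0 CPM in mixotrophic libraries and 79.9, 88.5 and 105.8 CPM in normal libraries, and those of g7959 were 34.3, 40.4 and 32.0 CPM in mixotrophic libraries and 84.3, 89.4 and 101.2 CPM in normal libraries. As a component they had a log2 fold change of -1.49 ± 0.101 over 4 libraries (adjusted p = 1.0e-09) and -1.41 ± 0.138 over 6 (adjusted p = 0.00202), and g7958 and g7959 were each called in both fits.

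The component of g12769 and g12770, matched to the same *Arabidopsis* protein, was higher instead, at 50.9, 48.3 and 43.3 CPM in mixotrophic libraries, against 37.0, 21.3 and 17.1 CPM in normal libraries. The conditions did not overlap, and it was called over 4 libraries (1.2 ± 0.180, adjusted p = 1.95e-05) and over 6 only with the block (0.86 ± 0.284, adjusted p = 0.0653 without and 0.0491 with it). The component of g11518 and g11526 was lower in both fits (adjusted p = 0.0514 with the block over 6), and g11526 had 6.69, 8.86 and 7.59 CPM in mixotrophic libraries, against 11.6, 16.7 and 19.1 CPM in normal libraries. In the unclear branch, the mutase transcripts g6647 and g6648, also of this superfamily, held 19.6, 31.3 and 21.4 CPM in mixotrophic libraries, against 43.9, 38.0 and 44.7 CPM in normal libraries. The step fell without overlap by 0.67 on the log2 scale over 4 libraries (SE 0.205, adjusted p = 0.0074) and by 0.81 over 6 (SE 0.226, adjusted p = 0.0373). The step was called on narrow margins. Over 4 libraries, neither g6647 nor g6648 was called without mixotrophic replicate 3 (-0.34 for g6647 and -0.48 for g6648), without normal replicate 3 (-0.43 and -0.64) or in DESeq2 (adjusted p = 0.258 and 0.113). With the block g6647 lost its call over 4 libraries (adjusted p = 0.0611), and both lost it over 6 (0.102 and 0.0693).

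Pyruvate kinase (PK), which forms pyruvate and ATP at the end of the pathway, has a cytosolic and a plastid step. The plastid share of PK counts was 36.1, 38.2 and 36.5% in mixotrophic libraries, against 26.7, 20.9 and 19.5% in normal libraries. The conditions did not overlap, and the mean was 36.9 ± 1.12% in mixotrophic and 22.4 ± 3.82% in normal libraries (SD, n = 3 each). The difference was 14.6 percentage points, with p = 0.1 in an exact permutation test, two-sided, which is the smallest that 3 against 3 libraries can give (adjusted p = 0.2 over 2 enzymes). Over replicates 2 and 3 alone it was 17.1 percentage points. The lack of overlap rested on a single cytosolic component, that of g68 and g69. Outside it, cytosolic PK held 452.2 CPM in normal replicate 1 and 488.2 to 528.7 CPM in mixotrophic libraries. Plastid PK held 436.7 CPM in normal replicate 1 and 391.1 to 402.5 CPM in mixotrophic libraries. Without that component the plastid share was thus largest in normal replicate 1, and the conditions overlapped.

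The plastid step held 391.1, 402.5 and 400.6 CPM in mixotrophic libraries, against 436.7, 215.9 and 188.2 CPM in normal libraries. It was higher over 4 libraries by 0.97 ± 0.0764 (adjusted p = 1.88e-09), but normal replicate 1 exceeded all mixotrophic libraries, and over 6 the value was 0.50 ± 0.331 (adjusted p = 0.286). All 4 plastid members were higher over 4 libraries and 0 were called over 6 by edgeR, also 0 at an unadjusted p under 0.05, while DESeq2 called all 4 higher over 4 libraries. In edgeR, 28.6% of all transcripts tested were higher over 4 libraries and 13.3% over 6. The larger component, matched to the beta subunit of the chloroplast enzyme, had g17852 at 131.2, 144.5 and 145.5 CPM in mixotrophic libraries, against 138.5, 65.1 and 61.8 CPM in normal libraries. Its neighbour g17853 had 138.8, 144.3 and 145.8 CPM in mixotrophic libraries, against 152.8, 72.7 and 61.1 CPM in normal libraries. Their log2 fold changes over 4 libraries were 1.17 ± 0.0946 and 1.11 ± 0.0976. The smaller component, g14677 and g14678, is matched to the alpha subunit and was higher by 0.57 ± 0.110 over 4 libraries (adjusted p = 0.000224).

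The cytosolic PK step was lower, at 691.8, 651.2 and 698.1 CPM in mixotrophic libraries, against 1197.8, 816.7 and 776.8 CPM in normal libraries, without overlap. Its log2 fold change was -0.26 ± 0.0508 over 4 libraries (adjusted p = 0.000154) and -0.45 ± 0.178 over 6 (adjusted p = 0.0983). A single component carried the difference. With g68 and g69 it held 163.8, 163.0 and 169.4 CPM in mixotrophic libraries, against 745.7, 450.9 and 421.4 CPM in normal libraries. It fell by 1.46 on the log2 scale over 4 libraries (SE 0.0652, adjusted p = 4.04e-12) and by 1.75 over 6 (SE 0.220, adjusted p = 0.00376), and was also called with the block over 6 (adjusted p = 0.0133). The other cytosolic PK transcripts together held 528.0, 488.2 and 528.7 CPM in mixotrophic libraries, against 452.2, 365.8 and 355.4 CPM in normal libraries, and so lay higher.

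Within the component that fell, g68 had 127.1, 124.6 and 126.4 CPM in mixotrophic libraries, against 412.1, 249.7 and 228.3 CPM in normal libraries. The transcript g69 had 36.7, 38.4 and 43.0 CPM in mixotrophic libraries, against 333.6, 201.3 and 193.1 CPM in normal libraries, and had the smallest adjusted p of all glycolysis members over 4 libraries (-2.30 ± 0.0956, adjusted p = 2.4e-18). Both fell, and unequally. The share of g69 in the counts of the component was 22.4 to 25.4% in mixotrophic and 44.6 to 45.8% in normal libraries.

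The component of g10248 and g10249, matched to a cytosolic isozyme, held 242.8, 208.5 and 240.5 CPM in mixotrophic libraries, against 173.0, 137.4 and 128.1 CPM in normal libraries. It rose without overlap by 0.68 ± 0.0831 over 4 libraries (adjusted p = 1.63e-06) and by 0.60 ± 0.133 over 6 (adjusted p = 0.0207, and 0.0465 with the block). Its transcript g10248 had 123.5, 106.4 and 115.5 CPM in mixotrophic libraries, against 78.5, 69.3 and 62.7 CPM in normal libraries. The single transcript g5103 was higher over 4 libraries only, g12717 was called as a transcript over 4 libraries with a log2 fold change of 0.21, and g6705 was not called.

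PEP carboxylase, which turns phosphoenolpyruvate into oxaloacetate and refills the citric acid cycle, is binned with glycolysis. Its step held 1476.9, 1434.6 and 1518.8 CPM in mixotrophic libraries, against 1003.8, 1847.2 and 1718.2 CPM in normal libraries. It was lower over 4 libraries, with a log2 fold change of -0.29 ± 0.0450 (adjusted p = 1.23e-05), and not over 6 (-0.04 ± 0.231, adjusted p = 0.920). Normal replicate 1 lay below all other libraries. Both of its components are matched to enzymes of *Chlamydomonas*. The component matched to PEP carboxylase 1, with g15083 and g15084, held 1181.2, 1133.0 and 1205.0 CPM in mixotrophic libraries and 561.9, 1273.5 and 1208.8 CPM in normal libraries. Its log2 fold change was -0.16 ± 0.0482 over 4 libraries (adjusted p = 0.00829) and 0.14 ± 0.321 over 6 (adjusted p = 0.803), so its sign turned with normal replicate 1. Neither transcript alone was called (-0.11 ± 0.0554, adjusted p = 0.0805 for g15083, and -0.10 ± 0.0539, adjusted p = 0.104 for g15084).

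The component matched to PEP carboxylase 2, which resembles the bacterial type, held 295.7, 301.6 and 313.8 CPM in mixotrophic libraries, against 441.9, 573.7 and 509.5 CPM in normal libraries. It fell without overlap, by 0.89 on the log2 scale over 4 libraries (SE 0.0636, adjusted p = 2.16e-09) and by 0.80 over 6 (SE 0.130, adjusted p = 0.00788), and was also called with the block (adjusted p = 0.0251). Its transcript g11329 had 148.5, 155.1 and 151.4 CPM in mixotrophic libraries, against 216.7, 277.2 and 257.9 CPM in normal libraries.

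PEP carboxylase kinase phosphorylates that enzyme in plants, but the 3 counted transcripts of its BIN carry descriptions of calcium-dependent protein kinases, a large family of signalling kinases. The transcript g13964 had 55.7, 55.1 and 51.4 CPM in mixotrophic libraries, against 53.3, 103.5 and 98.2 CPM in normal libraries, and fell over 4 libraries only (-0.94 ± 0.107, adjusted p = 1.25e-08). The transcript g2762 had 167.9, 167.9 and 171.4 CPM in mixotrophic libraries, against 148.4, 116.1 and 103.8 CPM in normal libraries, and rose over 4 libraries only (0.61 ± 0.0834, adjusted p = 3.16e-07). Without this BIN 20 members were higher and 22 lower over 4 libraries.

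Phosphoglycerate kinase, GAPDH, triose phosphate isomerase and aldolase, which glycolysis shares with the Calvin cycle, also have BINs there, with 17 transcripts of which 14 were tested. Of these 7 were higher and 3 lower over 4 libraries, with a median log2 fold change of 0.62, where DESeq2 gave 6 and 2. Over 6 libraries 5 were higher and 0 lower, and 7 and 0 at an unadjusted p under 0.05, with a median of 0.54. All transcripts tested gave 28.6% higher and 29.0% lower over 4 libraries in edgeR, and 13.3% and 15.2% over 6. The 17 were counted by transcript, and transcripts of a component can share reads. Triose phosphate isomerase has 1 transcript in the Calvin cycle BINs, with 0 counts in all 6 libraries, so no level is stated for it there. The Calvin cycle aldolase step held 1113.2, 1125.9 and 1144.0 CPM in mixotrophic libraries, against 780.8, 436.3 and 452.6 CPM in normal libraries. The step rose by 1.33 ± 0.0495 over 4 libraries (adjusted p = 5e-14) and by 1.02 ± 0.241 over 6 (adjusted p = 0.0226). The Calvin cycle GAPDH step held 2680.9, 2663.4 and 2812.5 CPM in mixotrophic libraries, against 1970.0, 1550.3 and 1568.5 CPM in normal libraries, and was higher in both fits (0.79 ± 0.0407 and 0.68 ± 0.106). Phosphoglycerate kinase, the ATP-forming partner of GAPDH, had 1511.2, 1534.1 and 1540.1 CPM in mixotrophic libraries, against 772.5, 1367.9 and 1395.0 CPM in normal libraries. It was higher by 0.13 ± 0.0420 over 4 libraries (adjusted p = 0.00967) and not called over 6. Fructose bisphosphatase, which reverses the PFK step, held 688.1, 670.2 and 736.1 CPM in mixotrophic libraries, against 568.2, 453.4 and 430.6 CPM in normal libraries, and was higher in both fits (0.65 ± 0.0573, adjusted p = 9.78e-09, and 0.53 ± 0.120, adjusted p = 0.0202).

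Among the lists that border on glycolysis, hexokinase and fructokinase, which phosphorylate incoming sugars, had 0 higher and 1 lower of 4 tested over 4 libraries in edgeR, and 0 and 0 over 6. The counts at an unadjusted p under 0.05 were 0 and 1, and 0 and 0, and DESeq2 gave 0 and 1 over 4 libraries. For these lists, all transcripts tested gave 28.6% higher and 29.0% lower over 4 libraries in edgeR (19.4% and 20.0% in DESeq2). Over 6 libraries they gave 13.3% and 15.2% (9.97% and 10.5% with the replicate block). All these lists were counted by transcript, and transcripts of a component can share reads. The gluconeogenesis list took BIN 6 and its children whole and was not divided by pathway. It had 11 higher and 6 lower of 19 over 4 libraries, and 11 and 4 over 6 (11 and 1 with the replicate block). The pyruvate dehydrogenase complex, which feeds pyruvate into the citric acid cycle, had 4 higher and 3 lower of 14, and 2 and 0 over 6 (2 and 0 also at an unadjusted p under 0.05, and 0 and 0 with the block). Fermentation had 0 higher and 8 lower of 13, and 0 and 4 over 6, with 0 higher and 6 lower over 6 at an unadjusted p under 0.05 and 0 higher and 7 lower in DESeq2 over 4. Hexokinase itself held 70.6, 64.3 and 60.7 CPM in mixotrophic libraries and 74.3, 69.7 and 62.1 CPM in normal libraries, which overlapped. Fructokinase held 96.5, 111.3 and 116.0 CPM in mixotrophic libraries, against 89.8, 190.8 and 176.7 CPM in normal libraries. As a BIN it was lower over 4 libraries in edgeR (-0.71 ± 0.0925, adjusted p = 1.62e-06) and not called over 6 (-0.50 ± 0.297, adjusted p = 0.244). The 63 transcripts that the study lists for glycolysis by annotation, of which 21 lie outside BIN 4 and the rest are members, had 20 higher and 14 lower of 48 over 4 libraries, and 8 and 11 over 6.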

How the data were processed

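Cultures of both conditions were sequenced as paired-end libraries. Following the study's methods, the authors assembled the pooled reads with Trinity 2.0.6, predicted transcripts with AUGUSTUS 2.5.5, aligned reads with Subread, counted them with featureCounts and assigned BINs with Mercator, and the submitters' processing notes also name BWA. The deposited table holds raw counts per transcript. Fold changes, p-values and calls that the authors made with DESeq2, and their enrichment results, were not used.

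edgeR 4.0.16 (R 4.3.3; TMM, filterByExpr, minimum count 10, glmQLFit, glmQLFTest) was run on transcripts, on component sums with their own scaling and on BIN sums outside BIN 35 with the transcript scaling, adjusting p over all features tested. SE is the absolute log2 fold change over the root of F. Scripts were tested on simulated data without a shift of replicate 1. The simulated spread lay far below the common coefficient of variation of 35.520% over 6 libraries. The simulation therefore does not show how the fit over 6 libraries behaves. Distances of normal replicate 1 used log2(CPM + 0.5). P-values measure only the spread between these libraries, which may be technical, and floors cover counting error only.

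Pre-cultures were divided between the conditions, without naming the libraries that share one. Deviations of same-numbered libraries from their condition means correlated at 0.709, 0.632 and 0.553 for replicates 1, 2 and 3. The deviations within a condition cancel out, so a shift shared by replicate 1 of both conditions can raise every one of these values. Correlations are given only for same-numbered libraries. In root mean square log2 distance over all tested transcripts, mixotrophic replicate 1 lay 0.912 from normal replicate 1. It lay 1.452 and 1.346 from normal replicates 2 and 3. Mixotrophic replicate 2 lay 1.018 from normal replicate 2 and 0.989 from normal replicate 3. Mixotrophic replicate 3 lay 0.995 from normal replicate 3 and 1.005 from normal replicate 2. The pairing by number used for the block is an assumption.

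For each step, the member with the highest mean CPM was named, and so was that with the smallest adjusted p in each direction, as were members of at least 2-fold change called in both fits and those of components with opposite calls. The remaining ones were picked with their values known. The members and lists were chosen with earlier results of these data known. Scaling (RLE, upper quartile), tool (DESeq2 1.42.0), filter, libraries, block and a fold threshold were varied. Member-only components and the count without the kinase BIN were added after seeing the data. Sequences and lengths were not analysed here.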

Additional observations from a re-analysis of the deposited data

How the results depend on the processing

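Over 4 libraries, RLE and upper quartile scaling, DESeq2, both filters and the replicate block kept every count of glycolysis calls within 1.5 times the value reported, as did leaving out each of the 4 libraries. DESeq2 called 18 transcripts higher and 18 lower. Leaving out 1 library gave 19 to 21 transcripts higher and 22 to 24 lower, 13 to 14 components higher and 11 to 14 lower, and 4 to 6 steps higher and 4 to 6 lower. The remaining libraries decided more. All 6 libraries gave 4 transcripts higher, 4 components higher and 9 lower, and 1 step higher and 1 lower, and with member transcripts only 4 components higher and 8 lower. With mixotrophic replicate 1 left out of the 6, the counts were 2 and 8 transcripts, 1 and 6 components, and 0 and 0 steps, higher and lower. With normal replicate 1 left out they were 21 and 26 transcripts. The replicate block over 6 libraries, a pairing by number, gave 3 and 13 transcripts, 3 and 6 components, and 1 and 0 steps. Over 4 libraries the block gave 21 and 23 transcripts, 13 and 13 components, and 5 and 6 steps. Beside the values given with the results, it changed no other call of a transcript, component or step named there in the 4 libraries. A minimum absolute log2 fold change of 1 left 6 and 12 transcripts, 3 and 5 components, and 0 and 1 steps.

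For the named transcripts, 433 of the alternative values kept direction and call, 56 lost the call, 2 gained it and 9 turned in sign. The last were g15083 over 6 libraries (0.21), without mixotrophic replicate 1 (0.18) and with the block (0.30), g7399 over 6 (-0.06) and without mixotrophic replicate 1 (-0.06), g16399 without normal replicate 1 (-0.18), and g16399 and g17215 with 1 of the 4 libraries left out, where they ranged from -0.11 to 0.74 and from -0.06 to 0.11 with no call in the main comparison. The cause was not tested. For the plastid shares, 2 against 2 libraries cannot reach an exact p under 0.05. Low transcripts such as g16399 and g13383 are limited by depth.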
